A study of Mus musculus with 18 samples.

Results

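Mouse embryos that lack Dnmt3b were compared with wild-type (WT) embryos at E8.5, the stage at which the first organs form. The comparison uses 11 of the 18 single-embryo libraries of the study: 4 labelled Dnmt3b_KO (genotype Dnmt3b null) and 7 labelled WT (genotype Wildtype), all on the 129S4/SvJae strain background. Libraries were chosen by their labels alone. Whole embryos were dissociated singly and the 3′ ends of transcripts were counted in single cells with 10x Genomics 3′ v3 chemistry. The study bred the null embryos from heterozygous parents, but which mating gave each WT embryo, and which part of Dnmt3b the null allele lacks, are not given in the sources used here.

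DNMT3B adds methyl groups to CpG sites that were not methylated before, and it is the main enzyme that does so in the embryo after implantation. Many promoters that serve only germ cells (meiosis, the piRNA pathway that silences transposons, and testis copies of common enzymes) become methylated at that time and are silent in body tissues. In embryonic cells the same group of promoters is also held down by PRC1.6, a Polycomb complex whose subunits MGA and MAX read the E-box CACGTG and whose subunit E2F6 reads TCCCGC.

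In the whole embryo, genes that differed were nearly all higher in Dnmt3b KO. Of 18293 genes tested, 229 (1.25%) passed an adjusted p of 0.01 with at least a doubling or halving of the level, and 227 of these (1.24%) were higher in Dnmt3b KO while 2 (0.0109%) were lower. The 227 became 137 without Dnmt3b KO 12, 126 when all replicates were thinned to the smallest total, and 40 without Dnmt3b KO 11 and 12, and rose to 347 in DESeq2 and 344 with all 4 genotypes of the study in 1 fit. Of the 227 higher genes, 74 (32.6%) stood in one of 6 lists of germline genes, which hold 150 of the 18293 genes tested. The lists were chosen with earlier results of these data known, so this overlap is not a test. The median log2 fold change of the 227 was 2.89, against -0.01 over all genes tested. All 3 Dnmt3b KO replicates lay above every WT embryo for 225 of the 227, and for 964 (5.27%) of all genes tested. The median level of the 227 was 0.139 CPM in WT and 1.25 CPM in Dnmt3b KO, where CPM scales the UMIs (unique molecular identifiers, 1 per captured transcript) of an embryo to a total of 1000000. At a looser limit, an adjusted p under 0.05 with any fold change, 505 genes (2.76%) differed. Fold changes and adjusted p-values of genes are from the quasi-likelihood test of edgeR throughout.

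The promoters of 8 germline genes that rose are shown, since DNMT3B and PRC1.6 are known to act on promoters of germline genes. Neither methylation nor PRC1.6 binding of these 8 promoters was measured here. The 8 were taken in order of adjusted p among the named germline genes called higher. Each runs from 250 bases before to 50 bases after the annotated start. Capitals mark CACGTG and TCCCGC on either strand (GCGGGA where the other strand carries it). All are from RefSeq on GRCm38.p6 and read 5′ to 3′ on the strand of the gene. Tuba3a lies at chr6:125286032-125286331 (minus strand, 12 CpG sites), Slc25a31 at chr3:40708621-40708920 (plus, 22 CpG), Taf7l at chrX:134476441-134476740 (minus, 17 CpG) and Rpl39l at chr16:10169978-10170277 (plus, 17 CpG). Sycp1 lies at chr3:102936051-102936350 (minus, 21 CpG), Mael at chr1:166238695-166238994 (minus, 24 CpG), Mov10l1 at chr15:88982744-88983043 (plus, 20 CpG) and Rpl10l at chr12:66284352-66284651 (minus, 13 CpG). Tex11, Cox8c and Piwil2 stand between them in that order and are named only.
Tuba3a: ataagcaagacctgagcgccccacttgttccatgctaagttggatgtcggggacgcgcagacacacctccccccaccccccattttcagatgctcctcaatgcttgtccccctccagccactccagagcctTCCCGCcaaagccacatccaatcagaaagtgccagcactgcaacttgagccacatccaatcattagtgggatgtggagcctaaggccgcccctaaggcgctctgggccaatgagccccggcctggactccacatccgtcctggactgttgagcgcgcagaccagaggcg
Slc25a31: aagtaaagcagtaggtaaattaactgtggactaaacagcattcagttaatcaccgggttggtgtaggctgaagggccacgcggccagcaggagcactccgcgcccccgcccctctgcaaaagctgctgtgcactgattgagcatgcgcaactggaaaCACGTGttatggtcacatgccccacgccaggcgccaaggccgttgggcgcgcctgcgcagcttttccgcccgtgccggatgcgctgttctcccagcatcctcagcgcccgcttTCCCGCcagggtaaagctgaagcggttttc
Taf7l: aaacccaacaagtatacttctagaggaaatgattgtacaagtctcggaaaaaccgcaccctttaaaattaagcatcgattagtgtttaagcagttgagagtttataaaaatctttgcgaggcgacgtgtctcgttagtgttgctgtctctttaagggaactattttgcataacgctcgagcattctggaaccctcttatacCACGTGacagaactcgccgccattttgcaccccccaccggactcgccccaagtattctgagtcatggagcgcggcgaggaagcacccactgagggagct
Rpl39l: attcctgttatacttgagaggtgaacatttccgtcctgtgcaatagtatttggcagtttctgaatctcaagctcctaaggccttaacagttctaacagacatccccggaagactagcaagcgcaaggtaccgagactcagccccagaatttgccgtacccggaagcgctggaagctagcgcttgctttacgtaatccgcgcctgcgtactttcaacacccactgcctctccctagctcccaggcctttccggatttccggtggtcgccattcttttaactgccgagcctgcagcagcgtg
Sycp1: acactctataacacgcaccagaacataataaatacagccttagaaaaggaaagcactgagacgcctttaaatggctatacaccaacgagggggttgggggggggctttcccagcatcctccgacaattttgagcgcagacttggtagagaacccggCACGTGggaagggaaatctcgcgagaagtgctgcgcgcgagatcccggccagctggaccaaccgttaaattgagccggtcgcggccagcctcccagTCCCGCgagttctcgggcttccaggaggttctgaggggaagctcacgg
Mael: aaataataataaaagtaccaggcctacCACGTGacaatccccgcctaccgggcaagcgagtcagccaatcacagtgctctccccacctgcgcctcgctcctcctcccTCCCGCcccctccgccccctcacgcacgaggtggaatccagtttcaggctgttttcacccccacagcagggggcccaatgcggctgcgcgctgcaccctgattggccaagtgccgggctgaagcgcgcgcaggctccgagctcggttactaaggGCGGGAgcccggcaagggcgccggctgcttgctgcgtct
Mov10l1: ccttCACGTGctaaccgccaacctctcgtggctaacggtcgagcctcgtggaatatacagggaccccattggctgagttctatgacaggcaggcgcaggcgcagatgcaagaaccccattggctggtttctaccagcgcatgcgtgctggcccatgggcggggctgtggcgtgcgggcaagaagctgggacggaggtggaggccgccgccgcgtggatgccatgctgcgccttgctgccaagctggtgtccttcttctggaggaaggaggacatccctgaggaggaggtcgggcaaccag
Rpl10l: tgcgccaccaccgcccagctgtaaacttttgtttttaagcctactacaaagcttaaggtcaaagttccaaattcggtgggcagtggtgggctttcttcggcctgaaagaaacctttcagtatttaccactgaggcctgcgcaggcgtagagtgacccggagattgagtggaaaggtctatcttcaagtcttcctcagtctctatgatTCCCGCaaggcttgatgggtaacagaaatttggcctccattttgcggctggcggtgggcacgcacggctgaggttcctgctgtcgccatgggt

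Slc25a31, Taf7l, Sycp1, Mael and Mov10l1 carried CACGTG, and Tuba3a, Slc25a31, Sycp1, Mael and Rpl10l carried TCCCGC, while Rpl39l carried neither in this window. Among 65 promoters of 59 germline genes called higher, 33.8% held CACGTG, 36.9% held TCCCGC and 16.9% held both. The shares were 15.8%, 26.3% and 3.95% in 76 promoters of 62 germline-list genes that were tested and not called. They were 7.15%, 20% and 1.99% over all 32851 promoters of the table, which cover 27025 genes, and 9.19%, 31.5% and 3.32% over the promoters of all genes tested here. Both motifs were searched as exact letters on both strands, they do not overlap each other, and a match says only that these letters are present. The median number of CpG sites was 14 in the germline promoters called higher, 16 in those not called and 18 over tested genes.

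The 11 libraries held 103086 barcodes, of which 73901 had at least 1500 mouse UMIs and at most 30% of them from mitochondrial genes. Kept barcodes came to 37559 in Dnmt3b KO and 36342 in WT, where barcodes shared by the libraries described next are counted in each, with 37342307 to 262283813 UMIs in a library and a median of 6302 to 57990 UMIs per cell. Libraries Dnmt3b KO 1 and Dnmt3b KO 2 shared 12249 barcodes (86.5% and 79.3% of their own), whereas no other pair among the 11 shared more than 133. Of the 8721 barcodes kept in both, 94.7% fell in the same cell class, against 9.94% from class sizes alone. They were therefore summed and counted as 1 replicate, called Dnmt3b KO 1+2, which leaves 3 Dnmt3b KO replicates. They hold 12120 distinct kept barcodes, and a barcode found in both enters the counts and class shares of 1+2 from each library. Sex was not balanced: Y-linked transcripts marked Dnmt3b KO 1, 2 and 11 and WT 2 as male, and the other 7 libraries as female. For WT 1 and Dnmt3b KO 11 the reference held human genes too, and mouse genes alone were used.

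Levels of Dnmt3b KO embryos are given below in the order 1+2, 11, 12, and WT levels as the lowest to the highest of 7 embryos. Dnmt3b itself was counted at 57.7, 63.4 and 68.5 CPM in Dnmt3b KO and at 36.0 to 87.3 CPM (median 64.8) in WT, so the groups overlapped (log2 fold change 0.01, SE 0.20, adjusted p = 0.991). Since reads come from the 3′ end and the deleted part is unknown, this level does not check the genotype. The study typed its knockouts by PCR on ectoplacental cone tissue, and results for single embryos are not given in the sources used here. The related enzyme Dnmt3a stood at 32.4, 15.1 and 7.60 CPM, against 23.5 to 34.9 CPM (median 30.6) in WT. Embryos 11 and 12 lay below every WT embryo and 1+2 lay within the WT range, and the group difference did not pass the test (log2 fold change -0.73, SE 0.30, adjusted p = 0.238). The level in embryo 12 was close to that of the 4 libraries labelled Dnmt3a_KO (7.59 to 11.9 CPM). In each of 15 cell classes embryos 11 and 12 both lay below every WT embryo for Dnmt3a, while embryo 1+2 did so in 0.

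The glutathione transferase gene Gstm6 followed the same order, at 3.3, 1.36 and 0.689 CPM in Dnmt3b KO, 2.43 to 3.82 in WT and 0.288 to 1.07 in the Dnmt3a_KO libraries. What sets embryos 11 and 12 apart in Dnmt3a was not tested. The libraries labelled Dnmt3b KO 11 and 12 therefore carry this doubt in every result below. Values without them are given beside some of the main counts but not all. Calls of single genes rest on all 3 replicates. In the fit without embryos 11 and 12, which leaves 1 replicate, many calls of genes named below were lost. Among them were Tex12, Tex19.1, Asz1, Dnd1, Rhox4d and Xlr. Gtsf1, Sohlh2, Dppa2, Dppa5a, Cox7b2, Rhox13, Rhox4e, Fthl17f, Mageb4 and Ifi27 lost theirs too. Dnmt1, which copies methylation onto new strands, stood at 128, 80.1 and 112 CPM against 83.9 to 115 in WT. None of 19 genes for methyltransferases and their cofactors was called (median log2 fold change -0.10), nor any of 15 for demethylation and methyl-CpG binding (median -0.16). Of the 16 PRC1.6 and E2F6 genes none was called either, with a median of 0.00, and E2f6 itself stood at 33.1, 27.1 and 26.1 CPM against 25.2 to 35.7. Since 1.25% of all genes were called, lists this short could give 0 calls anywhere. Their 0 calls therefore do not show that they are unchanged.

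The germline genes that rose came from each of the 6 lists. Over the 6 lists together, 150 of 212 members passed the filter on low counts, 74 were called higher, none was called lower, and the median log2 fold change of those tested was 1.63. Without embryos 11 and 12, 24 of 156 were called higher (median 1.13). A member that is silent in WT passes that filter only through Dnmt3b KO, so the count holds for tested members alone. Of all genes tested 1.24% were called higher, the share to set beside the count of each list below. The lists were chosen with earlier results of these data known, so the counts are descriptive. Summing whole embryos also joins the level per cell with the number of cells of a type, and the 2 cannot be told apart in a sum.

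**Figure D1:**
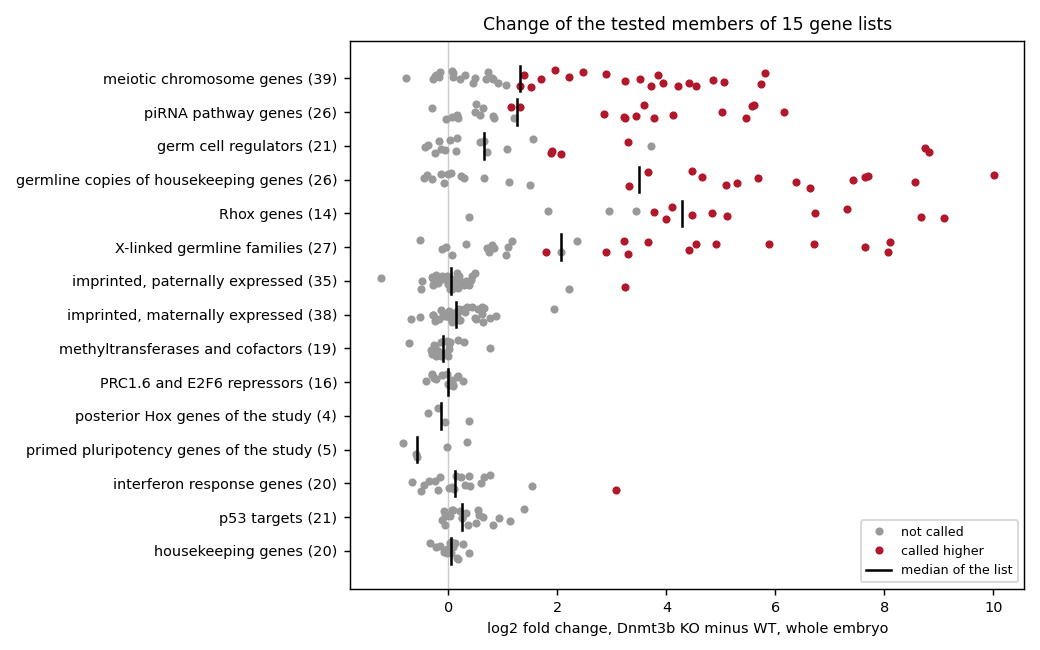
Log2 fold change (Dnmt3b KO minus WT, horizontal axis) of every tested gene of each list, 1 point per gene, in 15 lists with the number tested in brackets, red where called higher and a black line at the median. The 6 germline lists at the top spread to the right, with medians from 0.65 (germ cell regulators) to 4.29 (Rhox genes), and the housekeeping list at the bottom centres on 0.04.

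Of the meiotic genes, which serve the chromosome axis, synapsis, recombination and meiotic entry, 20 of 39 were called higher (median log2 fold change 1.32), and 8 of 39 without embryos 11 and 12 (median 1.04). Sycp1, which forms the transverse filaments of the synaptonemal complex, stood at 6.55, 9.59 and 21.2 CPM in Dnmt3b KO and at 0.108 to 0.513 CPM (median 0.184) in WT (log2 fold change 5.81, SE 0.45, adjusted p = 2.13e-05). Every Dnmt3b KO replicate lay above every WT embryo, and embryo 12 was the highest of the 3. Hormad1, an axis protein that marks unsynapsed chromosomes, stood at 7.14, 9.65 and 20.2 CPM against 0.0567 to 0.548 (log2 fold change 5.73, SE 0.53, adjusted p = 7.81e-05). Syce1, of the central element, stood at 4.24, 4.25 and 8.27 against 0.0912 to 0.402 CPM (log2 fold change 5.06). Tex12, also of the central element, stood at 3.09, 5.37 and 8.68 against 0.0794 to 0.478 CPM (log2 fold change 4.85). Hsf2bp, which helps load recombinases in meiosis, stood at 4.98, 5.83 and 12.4 CPM against 0.323 to 0.929 (log2 fold change 3.51, adjusted p = 6.13e-05). Tex11 on the X chromosome, needed for crossovers in male meiosis, rose from at most 0.130 CPM to 1.20, 1.06 and 3.51. The groups did not overlap for any of these 6 genes.

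Smaller changes were seen in cohesins: Stag3 rose with a log2 fold change of 1.52 and Smc1b with 1.39, and Sycp3 of the axis with 1.69, where embryo 12 was the lowest of the 3 (levels 2.76, 3.66 and 2.46 CPM). Stra8, the gatekeeper of meiotic entry, stood at 0.309, 1.18 and 4.68 CPM, against 0.0317 to 0.214 in WT, with embryo 1+2 just above the highest WT embryo. Syce2 and the ATPase gene Trip13, the uncalled members most abundant in WT, did not pass the test. Syce2 stood at 64.1, 62.5 and 73.9 CPM against 52.0 to 59.8, and Trip13 at 84.2, 73.6 and 84.1 against 69.8 to 79.1.

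In the piRNA pathway, which loads small RNAs onto PIWI proteins to silence transposons, 14 of 26 genes were called higher (median log2 fold change 1.25), and 5 of 26 without embryos 11 and 12 (median 1.23). Mael, a nuage protein, stood at 1.65, 2.16 and 3.51 CPM against 0.00888 to 0.128 CPM (median 0.0424) in WT (log2 fold change 5.58, SE 0.45, adjusted p = 2.95e-05). Mov10l1, the helicase that starts piRNA production, stood at 3.48, 3.31 and 9.98 against 0.322 to 0.599 CPM, and Piwil2, a PIWI protein, at 1.35, 1.45 and 3.3 against 0.147 to 0.256 CPM (log2 fold changes 3.77 and 3.22). For all 3 genes the lowest Dnmt3b KO replicate lay above the highest WT embryo. The mitochondrial acyltransferase Gpat2 stood at 4.36, 7.13 and 14.8 against 0.108 to 0.536 CPM and the kinase-like Stk31 at 3.07, 3.82 and 9.06 against 0.268 to 0.618 CPM. Ddx4, the germ cell helicase also called Vasa, stood at 8.69, 7.10 and 15.5 CPM against 0.706 to 2.43 (log2 fold change 2.86, SE 0.32, adjusted p = 2.61e-04). Fkbp6, a co-chaperone of the pathway that is also on the list of paternally expressed imprinted genes, stood at 12.8, 20.4 and 33.7 CPM against 0.688 to 3.72, and its call was lost without embryo 12.

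Tex19.1, a mammal-specific gene that limits transposons in germ cells and placenta, was already measurable in WT at 2.02 to 6.49 CPM (median 4.17) and stood at 15.8, 24.6 and 96.9 CPM in Dnmt3b KO (log2 fold change 3.44, SE 0.45, adjusted p = 7.95e-04). Asz1 and Gtsf1 rose far more in embryo 12 than in the others, with 2.07, 3.81 and 30.6 and 0.213, 0.580 and 6.03 CPM, against at most 0.536 and 0.0453 in WT. The uncalled members most abundant in WT were Tdrkh at 5.38, 6.16 and 11.7 CPM against 4.21 to 6.61 and Ddx25 at 8.40, 8.46 and 11.6 against 7.08 to 9.13. Piwil1, another PIWI gene, stayed at 0.0419, 0.0763 and 0.198 CPM against 0.0466 to 0.167.

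Of the germ cell regulators 6 of 21 were called higher (median log2 fold change 0.65), and 2 of 22 were called without embryos 11 and 12 (median 0.19). Dazl, an RNA-binding protein that licenses germ cell fate, differed widely between replicates, with 2.44, 14.6 and 195 CPM against 0.0912 to 0.258 CPM (median 0.134) in WT (log2 fold change 8.75, SE 0.97, adjusted p = 2.56e-04). Even embryo 1+2 lay above every WT embryo, and the 3 replicates differed from each other far more than the WT embryos did. Sohlh2, a transcription factor of early spermatogonia and oocytes, stood at 1.51, 2.34 and 55.5 CPM against 0 to 0.227, and its call was lost in DESeq2. Taf7l, a testis form of a general transcription factor subunit, stood at 2.04, 2.14 and 2.60 CPM against 0.130 to 0.405 CPM (median 0.206) (log2 fold change 3.29, SE 0.25, adjusted p = 2.02e-05). Dppa2, Dppa5a and Dnd1 rose more modestly (log2 fold changes 2.06, 1.87 and 1.89). Lin28a and Lin28b, which block let-7 maturation and are widely expressed at this stage, were not called, at 133, 114 and 83.0 CPM against 86.5 to 178 and 42.4, 32.9 and 25.8 against 33.7 to 58.8.

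Primordial germ cells are present in E8.5 embryos in small numbers, and the markers fixed for them were examined beside these lists. Of 6 markers 5 were tested, and Dnd1 alone was called higher. Outside the rule for named genes, Dppa3 stood at 0.919, 1.39 and 0.983 CPM against 0.274 to 3.24 in WT, Nanos3 at 0.168, 0.187 and 0.429 against 0.0536 to 0.190 and Tfap2c at 3.80, 3.97 and 3.24 against 2.78 to 5.52, so these groups overlapped. Kit, which other lineages express too, stood at 13.9, 8.97 and 5.52 CPM in the same order of replicates and overlapped WT. No cluster of cells met the conditions for the name of primordial germ cells.

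Among the germline copies of housekeeping genes, which replace X-linked or ubiquitous parents during spermatogenesis, 14 of 26 were called higher (median log2 fold change 3.49, also with the 1 gene that had no UMI in WT set to a floor of 3 UMIs). Without embryos 11 and 12 it was 8 of 28 (median 1.58). Slc25a31, the testis ADP/ATP carrier of mitochondria, stood at 14.1, 20.7 and 42.3 CPM against 0.544 to 1.36 CPM (median 0.979) in WT (log2 fold change 4.66, SE 0.31, adjusted p = 8.94e-06). The carriers of body tissues were not called: Slc25a4 stood at 687, 711 and 774 CPM against 590 to 770, and Slc25a5 at 545, 592 and 497 against 461 to 635. Tuba3a, a testis alpha-tubulin, stood at 4.03, 8.51 and 17.0 CPM against 0.0357 to 0.241 CPM (median 0.102) (log2 fold change 6.63, SE 0.45, adjusted p = 8.94e-06). Tuba3b, a near-identical copy, stood at 1.6, 4.98 and 40.4 CPM against at most 0.0291, and counts cannot be divided with certainty between the 2. Tuba1a, the main neural alpha-tubulin, lay above every WT embryo at 367, 375 and 335 CPM against 208 to 318 but was not called (log2 fold change 0.40, adjusted p = 0.173).

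Of 99 ribosomal protein genes 3 were called higher (3.03%, beside 1.24% of all genes), all of them copies with a restricted tissue range. Rpl39l stood at 32.1, 57.9 and 119 CPM against 0.946 to 3.08 CPM (median 1.98) (log2 fold change 5.10, SE 0.38, adjusted p = 2.02e-05), while its parent Rpl39 stood at 2996, 2735 and 2015 against 2293 to 3653 CPM. Rpl10l, which stands in for the X-linked Rpl10, stood at 2.0, 2.25 and 11.1 CPM against 0.0266 to 0.106, and Rpl10 at 1902, 2334 and 2240 against 1899 to 2297. Rpl3l, the copy known from striated muscle, stood at 0.277, 0.469 and 0.520 CPM against 0.0233 to 0.0536. The parents overlapped between groups and the copies did not, though reads of a copy and its parent may be divided imperfectly. Pdha2, Cox8c and Cox7b2, germline forms of mitochondrial enzymes, were almost absent in WT (at most 0.0268, 0.0175 and 0.135 CPM) and stood at 0.467, 1.12 and 9.35, 0.506, 1.09 and 2.15 and 0.348, 0.724 and 12.5 CPM. Cyct, testis cytochrome c, was not on the list and was called higher too, at 6.65, 17.1 and 27.1 CPM against 0.227 to 0.554 (log2 fold change 5.62, SE 0.37, adjusted p = 8.94e-06).

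**Figure D2:**
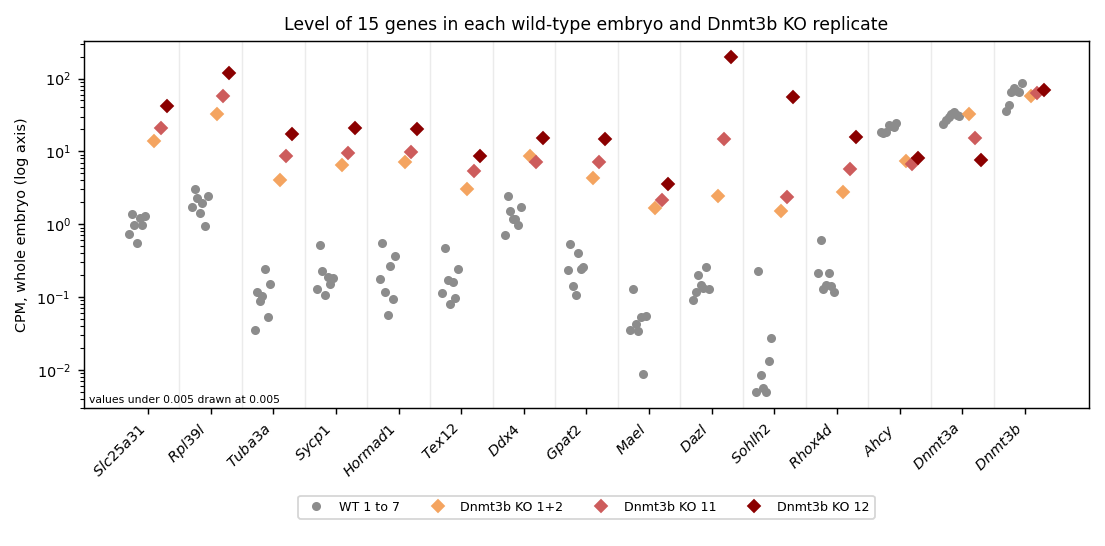
Level (CPM, log axis) of 15 genes in each of 7 WT embryos (grey points) and 3 Dnmt3b KO replicates (diamonds). From Slc25a31 to Rhox4d, 12 germline genes, every diamond lies above every grey point and embryo 12 is the highest, Ahcy is lower in Dnmt3b KO, Dnmt3a is low in embryos 11 and 12 alone, and Dnmt3b overlaps.

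The X chromosome carried 36 of the higher genes, which is 5.64% of its 638 tested genes, against 191 (1.08%) of 17614 autosomal genes. Without embryos 11 and 12, 6 of the 40 higher genes were X-linked. Of 14 tested Rhox genes, homeobox genes of the reproductive tract and placenta, 10 were called higher (median log2 fold change 4.29), but 1 of 15 without embryos 11 and 12 (median 2.78). Rhox4d stood at 2.77, 5.70 and 15.6 CPM against 0.119 to 0.612 CPM (median 0.147) (log2 fold change 5.11, SE 0.56, adjusted p = 2.39e-04) and Rhox4e at 6.88, 7.33 and 13.9 against 0.0268 to 0.886 CPM. These 2 belong to a set of near-identical copies, so the division of reads among them is uncertain. Rhox13 was nearly absent in WT, with no embryo above 0.0117 CPM, and stood at 0.0580, 0.202 and 4.84 CPM in Dnmt3b KO. Rhox6, which WT extraembryonic cells express, stood at 15.5, 20.4 and 82.8 CPM against 5.94 to 14.2, above every WT embryo but not called (log2 fold change 1.83, adjusted p = 0.0283). Rhox5 overlapped at 170, 201 and 406 CPM against 115 to 256.

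Of 27 tested members of other X-linked germline families 13 were called higher (median log2 fold change 2.07), where a gene on 2 lists counts under both. Without embryos 11 and 12, 2 of 29 were called (median 1.4). Xlr, a nuclear protein gene, stood at 4.59, 5.97 and 20.1 CPM against 0.629 to 1.5 CPM (median 0.906) (log2 fold change 3.23, adjusted p = 3.73e-04), and Xlr3b at 19.6, 21.2 and 33.7 against 4.12 to 10.8 CPM. Fthl17f, a ferritin-like gene, and Mageb4, a melanoma antigen family gene, were near 0 in WT (at most 0.0466 and 0.0108 CPM) and stood at 0.40, 0.675 and 5.27 and 0.126, 0.271 and 3.39 CPM. Copies within the Xlr and Fthl17 families are near-identical and their separate counts are uncertain. Nxf7 and Trap1a, both abundant in WT, overlapped between groups (34.7, 34.7 and 25.2 CPM against 26.7 to 48.5, and 74.8, 77.7 and 132 against 47.3 to 130). Because the sexes were unequal, the fit was repeated with sex as a covariate: 38 X-linked genes were then higher, 34 of them called in both fits. None of the X inactivation RNAs was called, and Xist stood at 0.409, 0.408 and 503 CPM, the first pair of values from males and the last from a female.

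The 3 Dnmt3b KO replicates were not equal. The 227 higher genes summed to 576 CPM in embryo 1+2, 690 in embryo 11 and 1762 in embryo 12, against 135 to 200 CPM (median 168) in WT. Embryo 12 held the highest level for 202 of the 227 genes (89.0%), against 40.0% of the 12628 tested genes with at least 1 CPM in Dnmt3b KO. The order 12, 11, 1+2 was seen in 150 (66.1%) of the 227 genes and in 18.2% of the same 12628 genes. Of the 227 genes 125 reached 1 CPM too, and 73.6% of these were in that order. With 0.5 CPM added to each level, the median log2 ratio of embryo 12 to embryo 1+2 was 1.24 over these 125 genes and -0.04 over the 12628, and that of embryo 11 to embryo 1+2 was 0.28 and -0.14. This is the reverse of the order of Dnmt3a levels, and embryo 12 is the only female of the 3, and whether either has a part in it was not tested.

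**Figure D3:**
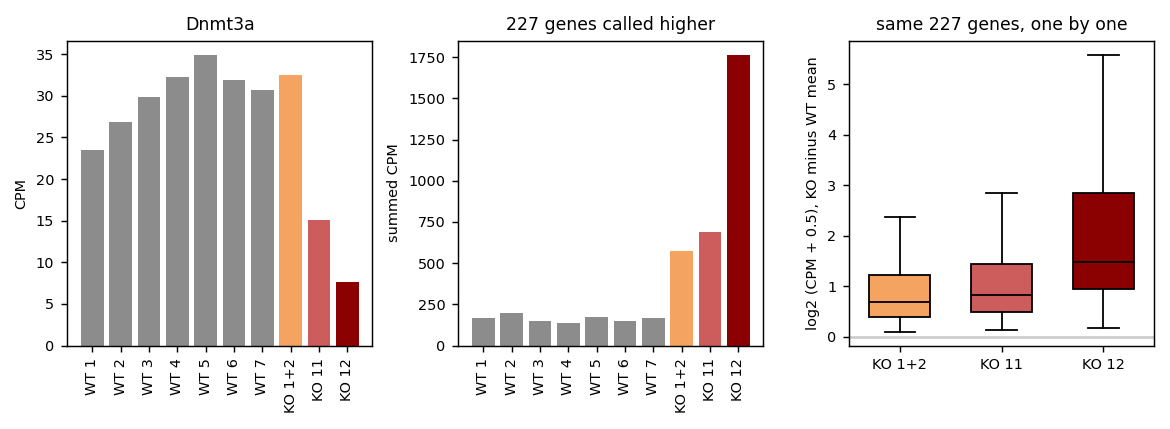
Dnmt3a level (CPM, left), summed level of the 227 genes called higher (CPM, middle), and log2 ratio of each of them to the WT mean with 0.5 CPM added (right, boxes with median and quartiles and whiskers without the extreme values). Dnmt3a falls from embryo 1+2 to 12 while the sum rises from 576 to 1762 CPM and the median ratio from 0.68 to 1.47.

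Without embryos 11 and 12 a single replicate stood against 7 WT embryos, and its spread was assumed to equal theirs. This comparison was added after seeing the data. It called 40 of 19104 genes higher (0.209%), of which 36 were among the 227 (90% of the 40 and 15.9% of the 227) and 24 were germline members. The 227 had a median log2 fold change of 2.02 here, which describes genes chosen with the same replicate 1+2 and the same WT embryos, so their direction is set by the choice. The germline members tested had a median of 1.13. Genes called in this fit included Slc25a31, Tuba3a, Cyct, Rpl39l, Rpl10l, Sycp1, Syce1, Hormad1, Mael, Mov10l1, Piwil2, Gpat2, Taf7l and Dazl. The 4 called genes outside the 227 were the granzyme genes Gzmc, Gzmf and Gzmg and the prolactin family gene Prl7a1. The prolactin family gene Prl8a2, a marker of decidua, was highest in Dnmt3b KO 12, which this fit leaves out, at 2.77 CPM. It stood at 0.239 and 0.642 CPM in Dnmt3b KO 1 and 2 and at 0.00381 in Dnmt3b KO 11, against at most 0.0339 CPM in WT. None of 10 tested decidua markers was called with all 3 replicates, beside 1.25% of all genes.

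Of the 227 genes 153 belonged to no germline list. They comprised coding genes, lincRNAs and antisense transcripts, and counts of a gene and its antisense partner may be divided imperfectly. Mgl2, a macrophage lectin, stood at 0.319, 0.881 and 4.89 CPM against at most 0.0198 in WT, and its call was lost when all replicates were thinned to the smallest total. Gc, the vitamin D binding protein, stood at 2.54, 2.55 and 3.31 CPM against 0.408 to 1.11, and Krt14, a keratin of stratified epithelium, at 2.05, 2.65 and 3.70 against 0.431 to 0.884. Ifi27 was the only called gene of 20 tested interferon response genes, at 0.364, 0.427 and 0.808 CPM against 0.0283 to 0.187. The uncalled members most abundant in WT overlapped between groups: Bst2 stood at 34.0, 47.4 and 57.6 CPM against 21.9 to 50.6 and Xaf1 at 8.13, 6.70 and 3.43 against 3.78 to 6.16. Clustered protocadherins (22 tested) and the 2 tested genes of the zygotic 2-cell programme had 0 calls, beside 1.25% of all genes.

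Imprinted genes, which keep their methylation from the gametes, were called at about the share of all genes (1.25%). Of 35 paternally expressed genes Fkbp6 alone was called (median log2 fold change 0.05), and of 38 maternally expressed genes none (median 0.14). The maternally expressed genes summed to 4229.8, 3822 and 4251 CPM in Dnmt3b KO and to 2932 to 3509 CPM in WT, without overlap. Such a sum joins the level per cell with the number of cells of a type. Within the cell classes described below, their median log2 fold change ran from -0.05 (extraembryonic endoderm) to 0.22 (surface ectoderm). Slc22a18 in allantois was the only one called there. In the whole embryo, 6 of the 38 maternally and 4 of the 35 paternally expressed genes lay above every WT embryo, beside 5.27% of all genes. Mest stood at 585, 527 and 565 CPM against 442 to 537, Peg3 at 430, 338 and 417 against 301 to 393, H19 at 751, 442 and 532 against 414 to 548 and Gnas at 631, 611 and 643 against 497 to 664. At the looser limit of an adjusted p under 0.05, which 2.76% of all genes passed, 4 of 38 maternally and 2 of 35 paternally expressed genes were higher, each above every WT embryo. The second gene from the paternally expressed list was Zim3, a zinc finger gene under 0.5 CPM in every embryo (log2 fold change 2.21, adjusted p = 0.0198). Which parental copy was expressed was not measured here for any gene. The placental growth regulator Phlda2 stood at 582, 834 and 694 CPM against 349 to 544 (log2 fold change 0.64, adjusted p = 0.0336) and Asb4 at 27.1, 25.1 and 43.2 against 14.6 to 20.6 (log2 fold change 0.87, adjusted p = 0.0150). Zfp64 and Th had log2 fold changes of 0.54 and 1.93, with Th under 0.4 CPM in all embryos.

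The study named its posterior Hox, primed pluripotency and extraembryonic genes from Dnmt1-/- embryos against WT, so these lists share the WT embryos with the comparison made here. None of the 4 posterior Hox genes was called (median log2 fold change -0.13), none of the 5 primed pluripotency genes (median -0.57) and none of the 6 extraembryonic genes (median 0.29). Hoxb9 stood at 37.1, 33.3 and 20.9 CPM against 31.1 to 55.5, Hoxc8 at 47.9, 46.1 and 37.8 against 40.5 to 58.2 and Pou5f1 at 2.22, 5.36 and 13.9 against 0.710 to 27.9. The groups overlapped for all 3. Of the extraembryonic genes Krt8, a keratin of simple epithelium, stood above every WT embryo at 439, 393 and 507 CPM against 299 to 361 (log2 fold change 0.45, adjusted p = 0.0208), as did Xlr3a (log2 fold change 1.10, adjusted p = 0.0352). Apoe overlapped. Within the cell classes described below, Xlr3a was called higher in 12 of 15 and Rhox5 in 3 of 15. None of the 35 tested Hox genes of any kind was called, nor any of 13 mitochondrial, 15 dissociation stress or 20 housekeeping genes. With 1.25% of all genes called, each of the short lists in this paragraph could give 0 calls anywhere.

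None of 21 targets of p53, which respond to DNA damage, was called (median log2 fold change 0.25), beside 1.25% of all genes. Their summed level was 526, 528 and 810 CPM in Dnmt3b KO and 469 to 582 CPM in WT, so embryo 12 alone lay above the WT range. The cell cycle inhibitor Cdkn1a stood at 14.8, 15.2 and 33.5 CPM against 11.4 to 16.3, Ccng1 at 18.8, 15.6 and 48.9 against 13.1 to 17.3 and Phlda3 at 20.2, 21.8 and 70.9 against 13 to 27.3. These 3 genes were picked from the 21 after their values were seen, and embryo 12 was the highest for each. No target had an adjusted p under 0.05.

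Both genes called lower lie close to Dnmt3b on chromosome 2. The number called lower was 26 in DESeq2 and 8 without WT 2 or without Dnmt3b KO 1+2, and the positions of those further genes were not examined. Gm14226 (chr2:155018266-155027104, plus strand, mm10) fell to 0.0516, 0.0648 and 0.0791 CPM from 8.65 to 16.5 CPM (median 13.8) in WT (log2 fold change -7.66, SE 0.27, adjusted p = 2.10e-08). Next to it, Ahcy (chr2:155059310-155074497, minus strand), the enzyme that clears the by-product of methyl transfer, stood at 7.44, 6.78 and 8.06 CPM against 17.7 to 24.8 CPM (median 21.7) (log2 fold change -1.52, SE 0.10, adjusted p = 8.94e-06). The 3 Dnmt3b KO replicates lay close together and far below WT for both genes, including embryo 1+2. Ahcy was the only called gene of 18 in the methionine cycle, and Mat2a and Adk were not (log2 fold changes -0.13 and 0.16).

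Within 5 Mb of Dnmt3b, 6 of 159 tested genes were called, and 18 (11.3%) had an adjusted p under 0.05, 9 lower and 9 higher. Outside that window 487 of 18133 genes (2.69%) did, 36 lower and 451 higher. The window spans 2 bins of 5 Mb. The bin before the start of Dnmt3b held 1 lower and 3 higher such genes among 72 tested. The bin after it held 8 lower and 6 higher among 88 tested, Dnmt3b included. No other 5 Mb bin of the chromosome held more than 3 such genes. All 18 genes of the window lay beyond every WT embryo. They were chosen by their adjusted p, and the share among genes outside the window that passed the same limit was not counted. So this does not set the window apart. The 18 included Dynlrb1, a dynein light chain gene (log2 fold change -0.55, adjusted p = 0.00593), and Map1lc3a, an autophagy gene (log2 fold change 0.62, adjusted p = 0.0198). The called higher neighbours were Gm14139, the GTPase gene Rem1, the smooth muscle myosin light chain gene Myl9 and BC029722 (log2 fold changes 1.88, 1.17, 1.11 and 1.11). The calls of Rem1, Myl9 and BC029722 were lost in 15, 13 and 9 of the alternative fits. Within 5 Mb of Dnmt3a, 0 of 40 genes were called and 1 had an adjusted p under 0.05, and at the shares over all genes (1.25% and 2.76%) so few genes could give such counts anywhere.

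**Figure D4:**
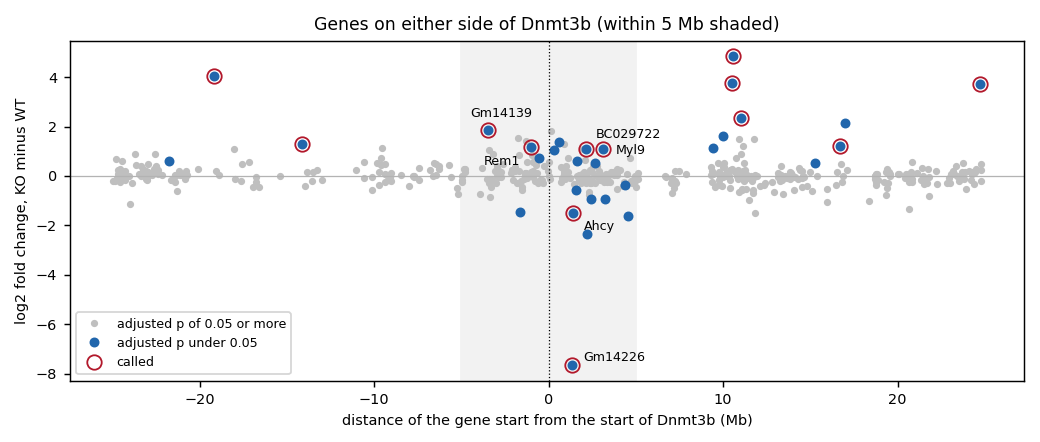
Log2 fold change (Dnmt3b KO minus WT) of tested genes near Dnmt3b against the distance of their start from its start (Mb, shaded within 5 Mb), blue where the adjusted p is under 0.05 and ringed where called, with the called genes of the window labelled. Gm14226 at -7.66 and Ahcy at -1.52 are the only ringed points below 0, and 18 of 159 genes in the window are blue.

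The comparison was repeated in each of 15 cell classes with enough cells. Classes were rebuilt from marker genes and leave 24.9% ± 1.19 (SD, n = 3) of Dnmt3b KO cells and 23.2% ± 4.21 (n = 7) of WT cells unnamed. Of 175331 pairs of gene and class, 895 (0.51%) were called higher and 47 (0.0268%) lower, in 281 genes. The 281 became 191 without Dnmt3b KO 11, 450 without Dnmt3b KO 1+2, 499 in DESeq2 and 597 with no low-count filter. Without embryos 11 and 12, 377 pairs were called, 12 of them lower. Of 255 genes higher in at least 1 class 35 were so in 10 or more, and 22 of these 35 were germline members. Slc25a31, Rpl39l, Hormad1, Tex12 and Tex19.1 were higher in all 15 classes, and Sycp1, Gpat2, Hsf2bp, Cyct and Fkbp6 in 14 each. Cyct was tested in 14 and the other 4 in 15. For Slc25a31 the class levels ran from 4.75 CPM (erythroid) to 25.7 CPM (cardiomyocyte) in embryo 1+2, and from 18.9 to 83.5 CPM in the same classes in embryo 12. Rhox6, not called in the whole embryo, was higher in 11 of 14 classes.

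The 74 germline genes called higher in the whole embryo summed to 154 to 381 CPM across classes in embryo 1+2, 235 to 503 in embryo 11 and 705 to 2005 in embryo 12. The sum was in the order 12, 11, 1+2 in 15 of 15 classes. In WT it ran from 11.9 to 75.9 CPM outside the extraembryonic (ExE) endoderm, and from 94.1 to 176 CPM in that class. These members were chosen by the whole-embryo result, so that Dnmt3b KO sums are higher is set by the choice. Of 73 of these genes with a WT level in some class, 33 (45.2%) had their highest WT mean in ExE endoderm, against 14.8% of 18064 genes that were not called. Dazl in embryo 12 stood at 14.5 CPM in ExE endoderm and at 590 CPM in ExE mesoderm.

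**Figure D5:**
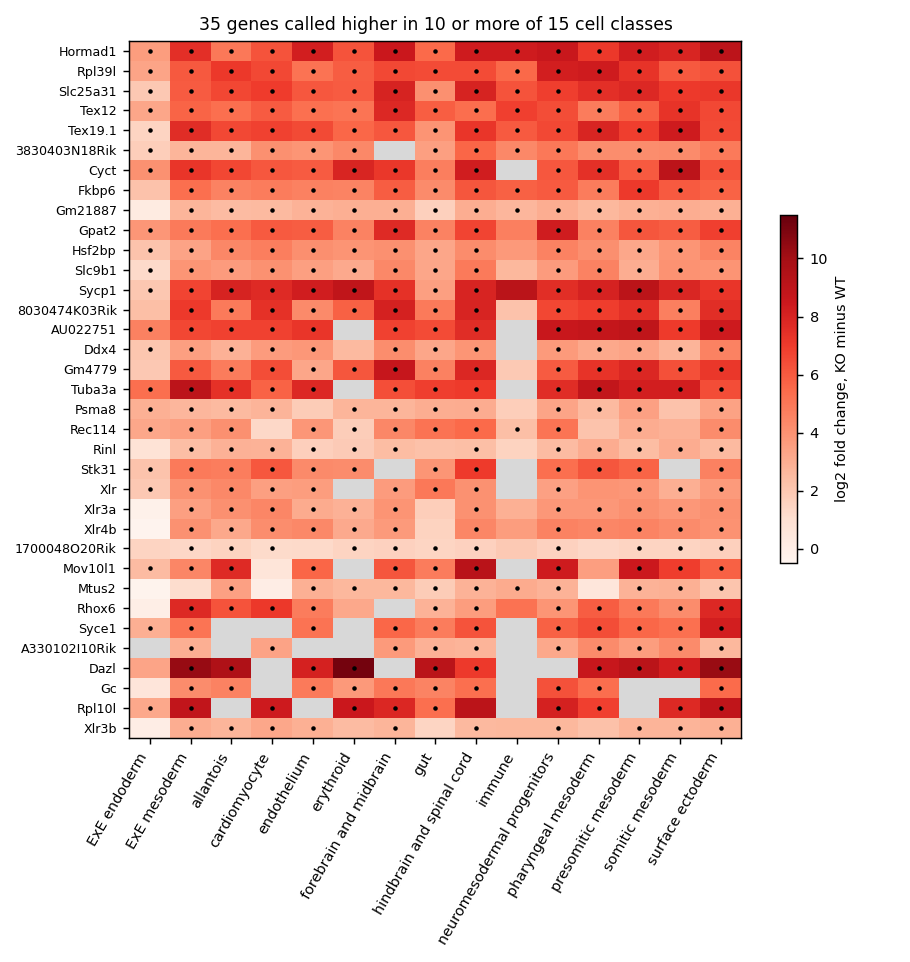
Log2 fold change (Dnmt3b KO minus WT, darker red for larger) of the 35 genes called higher in 10 or more of 15 cell classes, with a dot where called and grey where not tested. Hormad1, Rpl39l, Slc25a31, Tex12 and Tex19.1 at the top have a dot in all 15 columns, and the ExE endoderm column is the palest for most genes.

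ExE endoderm had the most calls, 134 of 13163 genes (1.02%), of which 85 were called in no other class. Surface ectoderm followed with 104 of 13032 (0.798%), and the fewest were in immune cells, 14 of 9615 (0.146%). In single classes, 146 genes were higher in 1 class alone, 70 of them in ExE endoderm. A call in one class and none in another does not show that the classes differ, since this was not tested. Some of the 146 genes passed the low-count filter in 1 class alone, so they could not be called in another. The genes called in 1 class with the lowest adjusted p included Dppa2 in ExE endoderm, at 7.43, 7.85 and 8.31 CPM against 1.51 to 2.50 in WT. Gm20005 in erythroid cells stood at 4.06, 5.51 and 5.73 CPM against 0.425 to 0.924, and Mageb16 in surface ectoderm at 5.30, 5.03 and 13.9 CPM against 0 to 1.04. The replicates did not overlap WT in any of these 3. Dppa2 was tested in 1 class, Gm20005 in 3 and Mageb16 in 5.

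Among the 26 genes lower in a class, Ahcy was lower in 15 of 15 and Gm14226 in 5 of 10. In WT Gm14226 was highest in presomitic mesoderm, and the Dnmt3b KO replicates stayed at or below 1.07 CPM in every class. Lgals1, a galectin, was lower in 3 classes and Cep250, a centrosomal gene that also lies near Dnmt3b, in 2. The other 22 genes were lower in 1 class each. In droplets, free RNA adds a low level of abundant transcripts to every class, and its part in the class levels was not measured.

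The share of cells in each class was tested by exact permutation (two-sided) across the 120 ways to assign the replicates to groups, whose smallest possible p is 0.0167. None of 17 classes passed an adjusted p of 0.05. The lowest was ExE mesoderm, at 7.01% ± 2.42 of cells (SD, n = 3) in Dnmt3b KO and 4.28% ± 0.844 (n = 7) in WT (exact permutation p = 0.0333, adjusted p = 0.397). Presomitic mesoderm stood at 2.06% ± 1.21 against 3.97% ± 1.48 (p = 0.10, exact permutation test), endothelium at 4.13% ± 0.388 against 5.97% ± 2.05 and surface ectoderm at 7.14% ± 1.68 against 5.24% ± 1.52. Replicates of the 2 groups overlapped in each of these classes. With that smallest p and 17 classes, no class could pass alone after adjustment, so the test says nothing about whether shares differ.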

How the data were processed

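Single-cell libraries of whole E8.5 embryos (10x Genomics 3′ v3) were used, 4 of Dnmt3b null and 7 of Wildtype embryos. The UMI counts per gene and barcode were deposited by the authors as unnormalised matrices made with Cell Ranger, version 3.1.0 in 10 of the 11 and 5.0.0 in 1 per the file headers. The members and gene lists were chosen with earlier results of these data known. Human rows and the mm10 prefix were removed, and barcodes with at least 1500 UMIs and at most 30% mitochondrial UMIs were kept. Dnmt3b KO 1 and 2 were summed as 1 replicate. Replicates are separate embryos. No column of other samples was left unused (0).

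Counts were summed per embryo, and per embryo and cell class, and tested with edgeR 4.0.16 (TMM scaling, low-count filter, quasi-likelihood test, Benjamini-Hochberg adjustment, with limma 3.58.1 and R 4.3.3). Calls needed an adjusted p below 0.01 together with an absolute log2 fold change of 1 or more. Classes came from Leiden clusters (resolution 2, 1500 cells per library, 2500 variable genes, 50 components, 30 neighbours, scanpy 1.11.5, leidenalg 0.10.2, igraph 0.11.9) named by marker scores of at least 1 with a lead of 0.1 and at least 3 markers, limits set after the scores were seen. Of 40 clusters 30 were named. Scrublet was run with an expected rate that rose with the number of cells and marked 4639 of 73901 cells, which were left out of classes (69262 remained). A class needed 25 cells in a replicate and at least 3 WT embryos. Shares of cells were tested with scipy 1.17.1 on a log scale with 0.5 cells added. Python 3.11.15, numpy 2.4.6, pandas 2.3.3 and matplotlib 3.10.9 were used.

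Named genes were Dnmt3b, Dnmt3a and Dnmt1, the 15 genes called higher and up to 10 called lower with the largest change among autosomal genes with a symbol and at least 2 CPM, called genes within 5 Mb of Dnmt3b or Dnmt3a, up to 6 called and 2 abundant uncalled members of each list, the 6 genes called in most classes in each direction and the leading gene called in 1 class alone. For 1 class that leading gene is not reported here. Others were named after their values were seen. These were Stag3, Smc1b, Sycp3, Stra8, Ddx4, Piwil1, Xlr3a, Xlr3b, Gc, Krt14, Gstm6 and Prl8a2. They also included the parent genes of germline copies, the primordial germ cell markers and the p53 targets Cdkn1a, Ccng1 and Phlda3. The imprinted and chromosome 2 genes under the looser limit were named in the same way. No p53 target passed that limit. Calls were tested on simulated data: 84.85% of 198 changed genes among 18145 were recovered in the whole-embryo comparison and 94.39% of 196 among 12505 in gut cells, each with 0 false calls. Alternatives were DESeq2 1.42.0, other scaling, filters, covariates, replicates left out, thinning and all 4 genotypes in 1 fit.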

Additional observations from a re-analysis of the deposited data

Results flagged for a closer look

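Among the 7 WT embryos, a single embryo stood apart from the nearest other by more than Dixon's 95% limit allows in 26 of 152 sets of values checked. Chance alone gives about 1 in 20, which would be 7.6, and the sets share embryos. WT 2, the male embryo, accounted for 16, WT 1 for 4, WT 7 for 4, and WT 3 and WT 5 for 1 each.

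WT 2 was the highest for germline genes, with 0.128 CPM for Mael, 0.513 for Sycp1, 0.402 for Syce1, 0.478 for Tex12, 0.227 for Sohlh2 and 0.216 for D1Pas1. It was also the highest for the near-identical Rhox4c, Rhox4d and Rhox4e, at 0.303, 0.612 and 0.886 CPM, for Wfdc10 at 0.251 CPM and for BC029722 at 5.18 CPM. The Y-linked Eif2s3y and Ddx3y stood at 37.6 and 31.6 CPM there. WT 2 was the lowest for Xist at 0.210 CPM, for Bax at 218 CPM and for surface ectoderm at 2.14% of cells.

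WT 7 was the highest for Pim2 at 13.9 CPM, Taf7l at 0.405 CPM and Xaf1 at 6.16 CPM, and the lowest for gut at 2.49% of cells. WT 1 was the highest for Kyat3 at 3.44 CPM, Rpl13 at 6990.5 CPM, Myl4 at 208 CPM and Mov10l1 at 0.599 CPM. WT 3 was the highest for Mt1 at 525 CPM and WT 5 for Ifi27 at 0.187 CPM.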

How the results depend on the processing

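No paired analysis was possible because, once Dnmt3b KO 1 and 2 are merged, the groups share a single replicate number. The 229 genes called (227 higher, 2 lower) became 373 (347, 26) in DESeq2, 349 (344, 5) with all 4 genotypes in 1 fit, and 129 (126 higher) when replicates were thinned to 1 total. With Dnmt3b KO 1 and 2 kept separate 5 were lower. Leaving out 1 replicate gave 139 (without Dnmt3b KO 12) to 286 (without Dnmt3b KO 1+2) called, 137 to 278 higher (221 without WT 2), and 2 to 8 lower, with 8 without Dnmt3b KO 1+2 or WT 2 and 4 without WT 1. The 942 calls in classes (47 lower) became 1457 (126) in DESeq2 and 2051 (108) with no low-count filter, and ranged from 739 to 1316 with 1 replicate left out, of which 27 (without Dnmt3b KO 11) to 88 (without Dnmt3b KO 1+2) were lower, and 77 without WT 2. The 74 germline members ranged from 57 to 79. Without Dnmt3b KO 11 and 12, a setting chosen after seeing the data, 42 genes (40 higher), 377 calls in classes (12 lower) and 24 germline members were left. In each of these settings the cause was not tested. Of the 227 higher genes 87 were called in all 22 planned settings, 43 of them germline. Of 55 named genes called, 38 were tested and called in every planned setting, 9 were not tested in some of them, and none turned direction where tested. The planned settings do not include the fit without Dnmt3b KO 11 and 12. Many further named genes lost their call in that fit, among them Tex12, Tex19.1, Dnd1 and Dppa2. The test of class shares could not pass for a single class in any setting, so it says nothing about stability. Of the 227 higher genes 105 had a WT mean under 0.1 CPM, 1 had no UMI in WT and 6 had 1 to 3.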
